A study of Mus musculus with 2 samples.

Results

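The genes described here are 42 genes of meningeal fibroblasts and of the matrix they lay down in the sheath of the optic nerve. They were chosen by name, as secreted matrix proteins, matrix enzymes, transcription factors and surface proteins of fibroblasts and arachnoid cells, with collagens left out. All 42 have 1 entry each among the 23950 gene symbols of the deposited tables, and all 42 were among the 14154 genes tested (at least 1 FPKM in 1 or both libraries, with a usable status in both). RNA-seq was done on whole optic nerve of mice of mixed strain at postnatal day 12. The control group is 1 library of the genotype Hdac3f/+; Olig1-cre, and the cKO group is 1 library of the genotype Hdac3f/f; Olig1-cre. Both groups therefore carry Olig1-cre, a recombinase expressed from the Olig1 gene in cells of the oligodendrocyte lineage, and at least 1 floxed Hdac3 allele. Hdac3 encodes a histone deacetylase, and the study asks how it acts on the choice between oligodendrocyte and astrocyte fate. The sources used here do not say how many animals each library pools, and with 1 library per group no p-value can be given.

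The optic nerve is a tract of the central nervous system, and like the brain it is wrapped in meninges. The fibroblasts of the pia, arachnoid and dura secrete collagen together with small leucine-rich proteoglycans that bind and space the fibrils, and with elastic fibres built of elastin on a scaffold of fibrillin microfibrils. Arachnoid cells also form a barrier to the cerebrospinal fluid and carry transporters for organic ions and neurotransmitters. These cells arise from mesoderm and neural crest rather than from the neural tube.

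FPKM, the fragments mapped to a gene scaled by its transcript length and by a library total, allows levels to be compared between genes. Hdac3 itself stood at 36.4 FPKM in the control library and 38 in the cKO library, so whole-gene FPKM does not check the genotype labels, and "cKO" below names the library by its label. A gene was called higher or lower when log2(cKO FPKM + 1) minus log2(control FPKM + 1), the log2 difference, reached 2-fold and its deposited intervals lay apart. These intervals cover no variation between animals, and 16 of the 42 control values and 31 of the 42 cKO values lie outside their own interval. Over all tested genes the median log2 difference was 0.12.

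All 42 genes had a higher FPKM in the cKO library than in the control library. The log2 difference ran from 0.15 for Cdh11 to 1.63 for Dcn, with a median of 1.05 and the middle 50% of 0.88 to 1.23. Of the 42, 24 were called higher and 0 lower, against 4.73% of all tested genes called higher and 4.51% called lower. The 42 genes were chosen with earlier results of these data known, so this comparison describes them and tests nothing. The size of these differences depends on how the libraries are scaled. With both libraries scaled to the same FPKM sum, 7 of the 42 were called higher (1.54% of all genes, with 6.89% lower), the median was 0.74 and 41 of 42 differences were above 0. The summed FPKM of the 42 genes was 3806 in control and 8032 in cKO, which is 0.867% and 1.45% of the FPKM summed over all symbols. Of the 42 genes, 9 are also known to be expressed by vessels or astrocytes, so these sums need not be meningeal RNA alone. The part of other cells in them was not tested. In whole nerve RNA, more meningeal cells and more RNA per meningeal cell cannot be told apart. Nor can either be told apart from the larger share of the library total left to other cells where oligodendrocyte RNA is lower (summed FPKM of 12 oligodendrocyte markers of 28070.3 in control and 3766 in cKO).

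**Figure D1:**
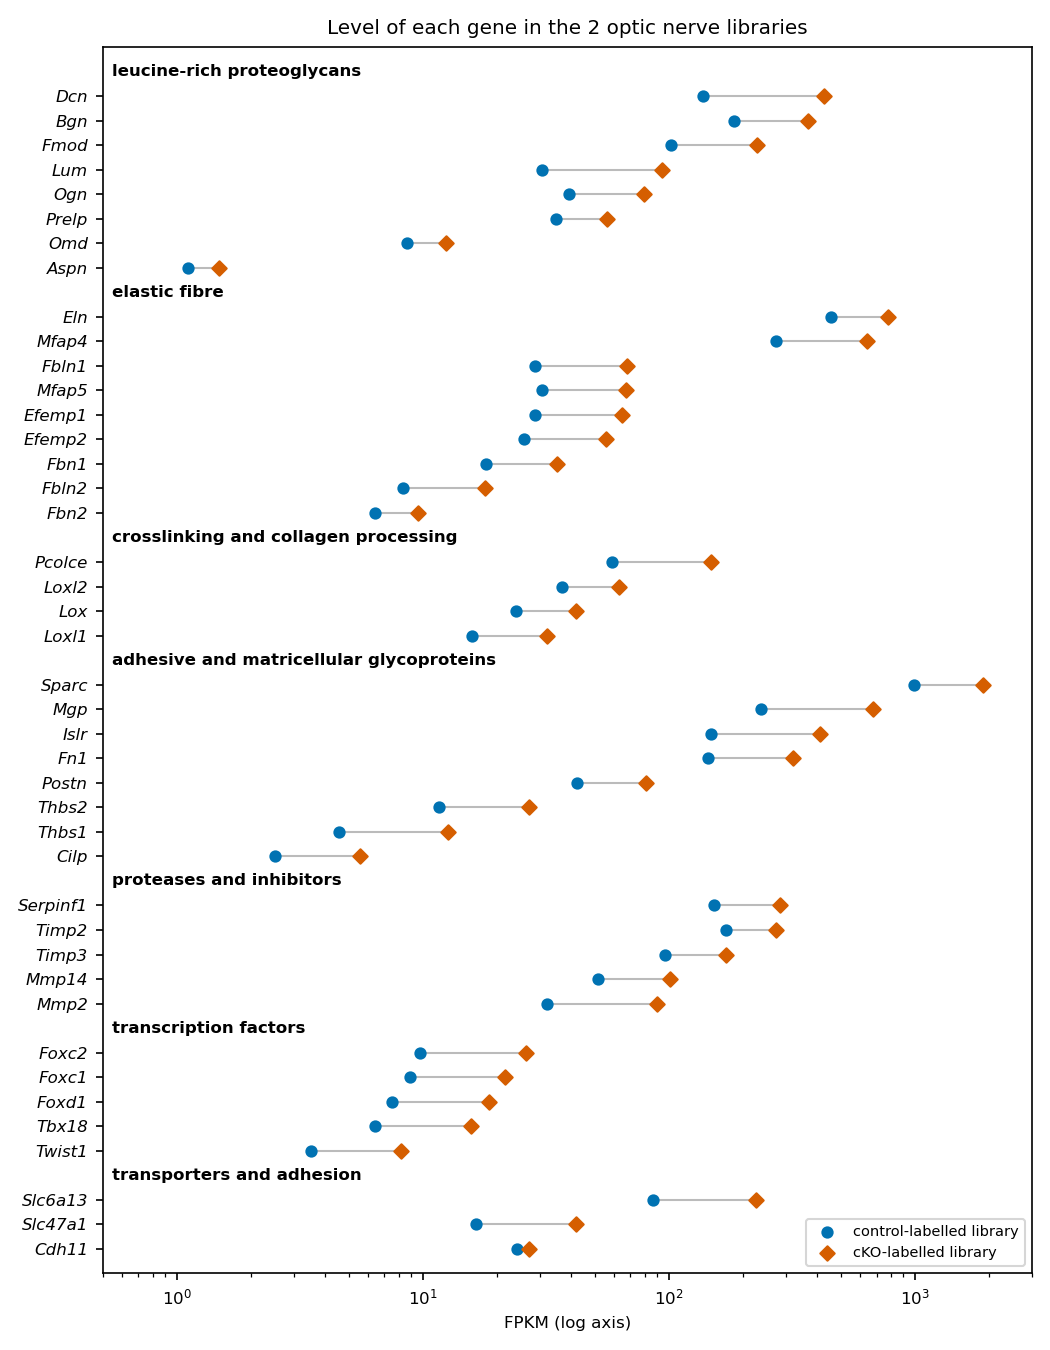
FPKM of each of the 42 genes on a log axis, grouped by role, in the control library (circles) and the cKO library (diamonds), with 1 library per group. Every diamond lies to the right of its circle, and the levels span from 1.11 FPKM for Aspn to 1899.9 FPKM for Sparc.

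Small leucine-rich proteoglycans carry a core of leucine repeats that docks on collagen fibrils. Of the 8 measured, 4 were called higher (Dcn, Lum, Fmod and Ogn), and their median log2 difference was 0.995. Decorin (Dcn), which binds collagen and TGF-beta, was at 138 FPKM in control (deposited interval 134 to 144) and 429 in cKO (430.5 to 440.4), a log2 difference of 1.63. Lumican (Lum), known from the cornea, was at 30.5 FPKM in control (26.4 to 29.9) and 94.1 in cKO (83.8 to 87.6), a log2 difference of 1.59. The intervals of both genes were far apart between the libraries. Dcn and Lum also lie next to each other on chromosome 10 (mm9, 96942134 to 97035337 for the pair). Fibromodulin (Fmod), abundant in tendon, was at 102 and 228 FPKM (log2 1.15). Biglycan (Bgn), the closest relative of decorin, was at 185 and 368 FPKM (log2 0.99) and fell just short of 2-fold, while osteoglycin (Ogn), at 39.3 and 79.6 FPKM (log2 1.0), just reached it. Prelp, a proteoglycan that anchors basement membranes to connective tissue, was at 34.8 FPKM in control against 56.3 in cKO (log2 0.68) and was not called. Osteomodulin (Omd, 8.67 and 12.4 FPKM, log2 0.47) and asporin (Aspn, 1.11 and 1.49 FPKM, log2 0.24) had the smallest differences of the family, and Aspn was the only one of the 42 genes whose intervals overlapped (0.827 to 1.4 and 1.31 to 1.68).

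Aspn, Omd and Ogn stand in a row within 80.1 kb of chromosome 13 (mm9, 49639812 to 49719869). The difference of Ogn was larger than those of Omd and Aspn, whose ranges between interval bounds overlap (0.20 to 0.69 and -0.06 to 0.55), so the stretches before their start sites are shown for comparison. Each line gives the 250 bases before the RefSeq start of the gene, all on the plus strand of build GRCm38.p6, and capitals mark the TATA motif TATAAA on either strand.
Aspn, chr13:49544193-49544442: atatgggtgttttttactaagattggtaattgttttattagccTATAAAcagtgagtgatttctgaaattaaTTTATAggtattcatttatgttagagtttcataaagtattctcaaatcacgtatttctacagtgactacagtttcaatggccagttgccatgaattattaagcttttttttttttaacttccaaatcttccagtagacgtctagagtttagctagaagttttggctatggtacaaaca
Omd, chr13:49582212-49582461: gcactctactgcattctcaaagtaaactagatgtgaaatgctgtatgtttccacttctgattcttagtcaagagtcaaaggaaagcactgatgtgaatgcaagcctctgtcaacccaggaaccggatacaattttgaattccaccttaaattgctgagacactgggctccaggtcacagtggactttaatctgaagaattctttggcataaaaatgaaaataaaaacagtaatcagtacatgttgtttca
Ogn, chr13:49607765-49608014: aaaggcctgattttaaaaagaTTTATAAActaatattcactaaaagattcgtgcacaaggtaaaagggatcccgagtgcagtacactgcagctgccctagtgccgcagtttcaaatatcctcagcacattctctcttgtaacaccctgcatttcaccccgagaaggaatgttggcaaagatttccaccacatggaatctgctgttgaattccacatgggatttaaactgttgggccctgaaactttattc
Aspn has 2 matches, which begin 207 and 178 bases before the start. Ogn has 2 overlapping matches, 229 and 227 bases before its start, and the Omd stretch holds none. Over all 32851 promoters of the table, 12.4% hold this motif in the same window.

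Elastic fibres consist of an elastin core on fibrillin microfibrils, joined by fibulins and microfibril-associated proteins. Of these 9 genes, 6 were called higher, with a median log2 difference of 1.08. On the deposited scale, the core and the scaffold genes were the ones not called. Elastin (Eln) was at 458 FPKM in control against 779 in cKO, a log2 difference of 0.77. Fibrillin-1 (Fbn1) was at 18.1 and 35.2 FPKM (log2 0.92). Fibrillin-2 (Fbn2), the isoform typical of developing tissue, was at 6.42 and 9.54 FPKM (log2 0.51). Among these 9, the 6 genes whose proteins assemble or decorate the fibre were called. Mfap4, a fibrinogen-related protein of elastic fibres, was at 273 FPKM in control (232 to 245) and 642 in cKO (552 to 562), a log2 difference of 1.23. Fibulin-1 (Fbln1) was at 28.6 and 67.6 FPKM (log2 1.21), and fibulin-2 (Fbln2) was at 8.36 and 17.9 FPKM (log2 1.02). The ranges between interval bounds of Fbn1 (0.83 to 0.98) and Fbln2 (0.89 to 1.17) overlap, so the 2-fold line alone parts them. With a fold of 1.5, Eln and Fbn1 were called as well, and with the same FPKM sum none of the 9 was called. Efemp1 and Efemp2, which encode fibulin-3 and fibulin-4, were at 28.7 and 64.4 FPKM (log2 1.14) and at 25.7 and 55.6 FPKM (log2 1.08). Fibulin-4 is needed to bring the crosslinking enzyme to elastin. Mfap5, a microfibril glycoprotein, was at 30.7 and 67.4 FPKM (log2 1.11). The 2 values of Mfap4 lie above their own intervals, and the intervals were still apart between the libraries.

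Lysyl oxidases crosslink collagen and elastin, and Pcolce raises the activity of the proteinase that trims procollagen. Of these 4 genes, 1 was called higher, with a median log2 difference of 0.88. Pcolce was at 58.9 FPKM in control (49.3 to 55) and 149 in cKO (127 to 133), a log2 difference of 1.32. The oxidases stayed under 2-fold on this scale. Lox was at 24.1 FPKM in control against 42.2 in cKO (log2 0.79), Loxl1 at 15.9 and 31.9 (log2 0.97) and Loxl2 at 36.9 and 62.8 (log2 0.75). With a pseudocount of 0.1 in place of 1, Loxl1 was called as well.

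Adhesive and matricellular glycoproteins link cells to the matrix or tune that contact. Of 8, 5 were called higher, and their median log2 difference was 1.15. Matrix Gla protein (Mgp), an inhibitor of calcification, was at 236 FPKM in control against 677 in cKO, a log2 difference of 1.51. Both Mgp values lie well above their own intervals (151 to 168 and 441 to 457). Islr, an immunoglobulin-domain protein of mesenchymal stromal cells, was at 149 FPKM in control (145 to 155) and 411 in cKO (413 to 422), a log2 difference of 1.46. Fibronectin (Fn1), an adhesive protein that integrins bind, was at 144 FPKM in control (144 to 148) and 319 in cKO (323 to 327), a log2 difference of 1.14. Both genes were high in the cKO library with intervals clearly apart. Thrombospondins bind many matrix and cell surface proteins. Thbs1 was at 4.59 and 12.6 FPKM (log2 1.29), and Thbs2 was at 11.6 and 27.1 FPKM (log2 1.16). Sparc, a collagen-binding glycoprotein that endothelial cells and glia also express, was the most abundant of the 42 genes, at 994 FPKM in control against 1899.9 in cKO (log2 0.93). It alone made up 26.1% of the summed FPKM of the 42 genes in control and 23.7% in cKO. Periostin (Postn), made by fibroblasts under tension, was at 42.5 and 81.2 FPKM (log2 0.92). Cilp, a protein best known from cartilage, was at 2.52 and 5.57 FPKM (log2 0.90) and crossed the 2-fold line when the pseudocount was lowered to 0.1 or 0.5.

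Among matrix proteases and their inhibitors, 1 of 5 was called higher, with a median log2 difference of 0.88. Mmp2, a gelatinase that cleaves denatured collagen and basement membrane, was at 32.0 FPKM in control (28.9 to 32.1) and 89.5 in cKO (82.6 to 85.6), a log2 difference of 1.46. The genes whose products act on Mmp2 had smaller differences. Mmp14, the membrane protease that activates it, was at 51.4 and 101 FPKM (log2 0.96). Timp2, which is both an inhibitor of metalloproteinases and a partner in that activation, was at 172 and 274 FPKM (log2 0.67). The ratio of Mmp2 to Timp2 FPKM was 0.186 in the control library and 0.326 in the cKO library. No scaling between libraries can change this ratio. Timp2 is also known from vessels or astrocytes, so the RNA of Mmp2 and Timp2 may come from different cells. This pair was picked after its values were seen. The ratio of Mmp14 to Timp2 moved less, from 0.300 in control to 0.368 in cKO. Timp3, an inhibitor bound to the matrix, was at 96.4 and 171 FPKM (log2 0.82). Serpinf1, which encodes the anti-angiogenic pigment epithelium-derived factor, was at 154 and 283 FPKM (log2 0.88).

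All 5 transcription factors were called higher, with log2 differences from 1.02 to 1.35 and a median of 1.19. Their summed FPKM, 36.1 in control and 90.7 in cKO, was the lowest of the roles, and single levels lay between 3.53 and 9.76 in control and between 8.20 and 26.4 in cKO. Foxc1 and Foxc2 are forkhead factors of mesenchyme, and Foxc1 is required for the meninges to form. Foxc1 was at 8.91 FPKM in control (8.01 to 9.58) and 21.7 in cKO (20.2 to 21.6), a log2 difference of 1.19. Foxc2 was at 9.76 FPKM in control (8.47 to 10.4) and 26.4 in cKO (23.9 to 25.8), a log2 difference of 1.35. Foxd1, a forkhead factor of stromal progenitors, was at 7.50 and 18.6 FPKM (log2 1.21). Tbx18, a T-box factor of mural cells and perivascular fibroblasts, was at 6.39 and 15.7 FPKM (log2 1.18). Twist1, a helix-loop-helix factor of neural crest mesenchyme, was at 3.53 FPKM in control (2.67 to 4.02) and 8.20 in cKO (6.81 to 8.06), a log2 difference of 1.02. The intervals of each of the 5 were apart. Scaled to the same FPKM sum, Foxc2 was the only one of the 5 that kept its call, and with a pseudocount of 5 it was again the only one.

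As examples of the control regions of these factors, the 250 bases before the RefSeq starts of Foxc1 and Foxd1 are given, both on the plus strand of GRCm38.p6, with capitals on the GC-box motif GGGCGG on either strand.
Foxc1, chr13:31806396-31806645: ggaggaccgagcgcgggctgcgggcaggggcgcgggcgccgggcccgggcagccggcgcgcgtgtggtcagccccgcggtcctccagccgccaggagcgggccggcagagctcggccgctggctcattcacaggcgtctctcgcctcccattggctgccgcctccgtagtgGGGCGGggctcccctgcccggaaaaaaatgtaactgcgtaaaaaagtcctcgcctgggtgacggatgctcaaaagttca
Foxd1, chr13:98353995-98354244: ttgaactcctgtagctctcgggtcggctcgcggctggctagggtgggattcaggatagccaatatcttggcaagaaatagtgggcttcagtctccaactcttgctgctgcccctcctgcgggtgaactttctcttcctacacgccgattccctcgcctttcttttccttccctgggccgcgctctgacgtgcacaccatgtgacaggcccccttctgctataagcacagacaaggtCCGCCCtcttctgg
Each has 1 match, 79 bases before the start in Foxc1 and 14 bases before it in Foxd1, where the match is on the opposite strand. RefSeq promoters were matched for 26 of the 42 genes, with 32 promoters among them. The GC box stood in 16 of these 32 (50%), against 32.7% of all promoters of the table. TATAAA stood in 5 (15.6%, against 12.4%). The AP-1 motif TGANTCA stood in 1 (3.13%, against 6.75%), the TEAD motif GGAATG in 2 (6.25%, against 12.6%), and the motif CAGACA, which holds a SMAD box, in 9 (28.1%, against 17.1%). The E-box variant CANATG stood in 10 (31.2%, against 35.0%), and the forkhead motif GTAAACA in 0 (against 3.17%). Both strands were searched, matches may overlap, and promoters of 1 gene share bases. The median ratio of observed to expected CpG was 0.378 in these promoters and 0.374 in all. Their median GC content was higher, 55.8% against 52.4%, and the motif shares were not adjusted for it.

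The last 3 genes are surface proteins. Slc6a13, a GABA and taurine transporter of leptomeningeal cells, was at 86.7 FPKM in control (76.6 to 82.9) and 227 in cKO (204 to 210), a log2 difference of 1.38. Slc47a1, which extrudes organic cations, was at 16.4 FPKM in control (14.4 to 16.9) and 42.03 in cKO (38.1 to 40.2), a log2 difference of 1.30. Both transporters were called higher. Cdh11, a cadherin of mesenchymal cells that glia can also express, was at 24.2 FPKM in control (22.3 to 24.7) and 27.0 in cKO (25.3 to 26.6), a log2 difference of 0.15, the smallest of the 42. Its sign turned after scaling to the same FPKM sum (log2 -0.17).

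**Figure D2:**
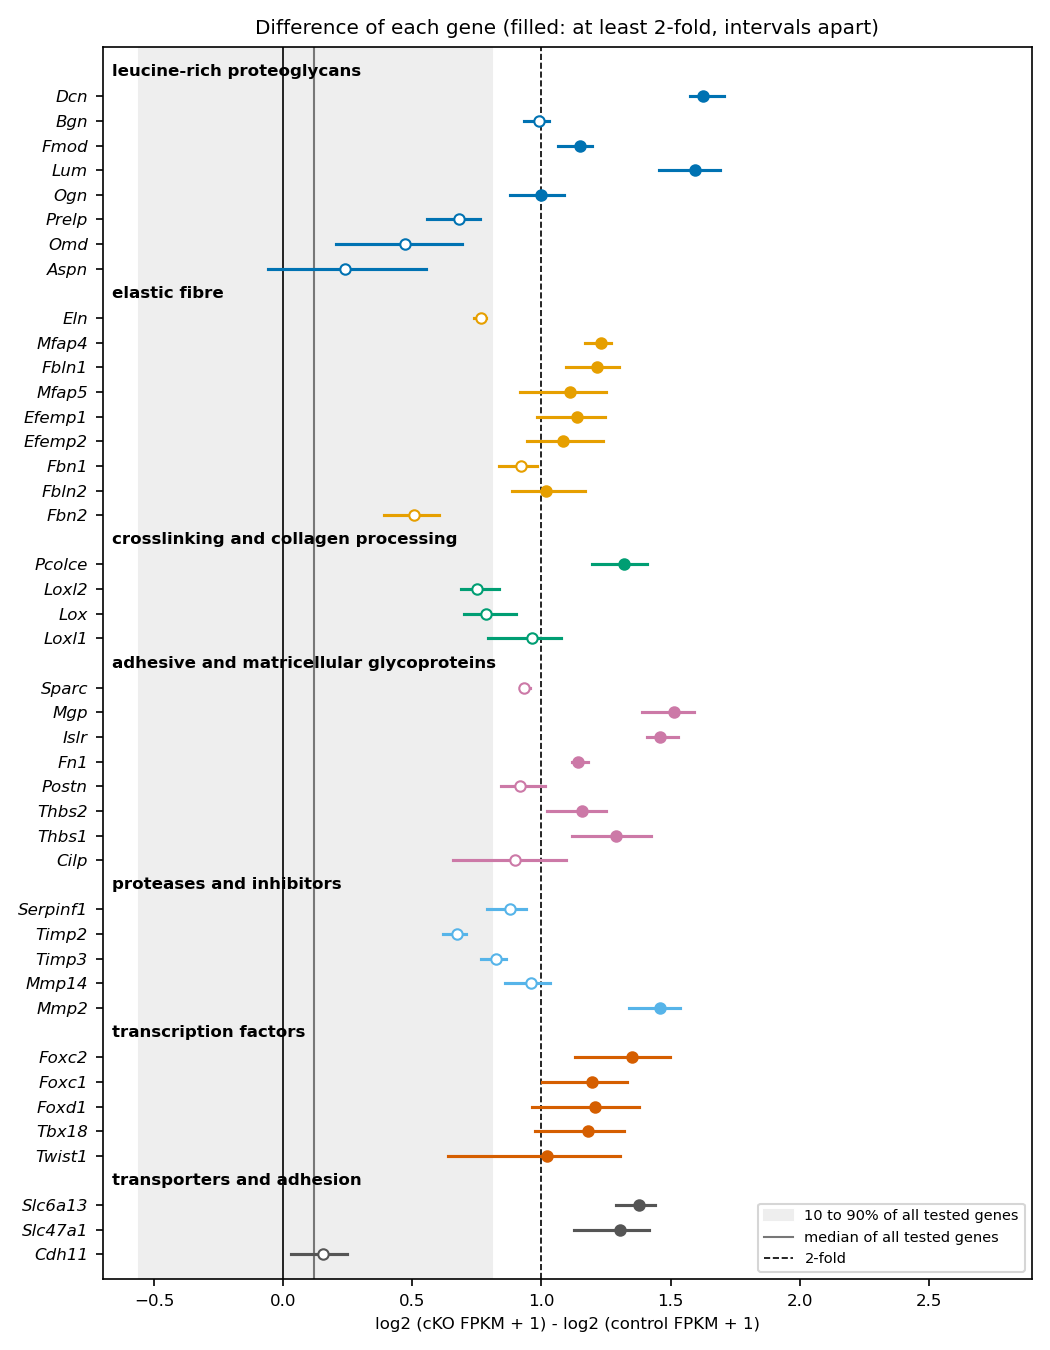
The log2 difference (cKO minus control, pseudocount 1 FPKM) of each of the 42 genes, by role. Points are filled where the gene was called higher, lines span the difference between the deposited interval bounds, and the grey band holds 10 to 90% of all tested genes (-0.56 to 0.81). All 42 points lie right of 0, and 33 lie right of the band.

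The middle 50% of the 42 differences spanned 0.34 on the log2 scale, against 0.60 for all tested genes. Of the 42 differences, 28 fell between 0.8 and 1.4. Such a width was not particular to the 42 genes. For lists described below, the middle 50% ran from 0.53 to 0.81 (astrocyte) and from 0.97 to 1.29 (arachnoid and meningeal). Other lists were wider, such as microglia (-0.01 to 0.73). In each library the genes were placed by their percentile among all tested genes, and all 42 stood at a higher percentile in cKO than in control. Thbs1 went from percentile 32.1 to 59.8, and Foxc2 from 54.6 to 79.2. Genes already near the top had little room, such as Sparc, at 99.8 and 99.9. The order of the 42 levels was nearly the same in both libraries (Spearman's rho 0.98 across the 42 genes, which share both libraries). The log2 difference itself was only weakly related to the mean level (rho 0.19, Pearson's r 0.28, across the same 42 genes, which are no independent replicates). With the length of the genomic locus, rho was -0.36 across these genes, so longer loci tended to have smaller differences. Ratios between genes within a library do not depend on the scaling between libraries. Dcn stood at 0.749 times the FPKM of Bgn in control and 1.17 times in cKO, with the intervals of both genes apart within each library. Lum stood at 0.879 times the FPKM of Prelp in control and 1.67 times in cKO. Slc6a13 stood at 3.59 times the FPKM of Cdh11 in control and 8.40 times in cKO. These pairs were picked after their values were seen, and they are among those that moved most. Foxc2 over Foxc1 moved less (1.10 in control and 1.22 in cKO). Eln over Fbn1 was lower in cKO (25.3 in control and 22.1 in cKO).

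Members that neighbour each other, within 500 kb, were compared with the other tested genes within 100 kb of them. Around Aspn, Omd and Ogn, the matrix gene Ecm2 was at 8.17 and 16.7 FPKM (log2 0.95). The other 4 genes there had differences below 0, among them Ippk (10.6 and 4.43 FPKM, log2 -1.10) and Iars (30.5 and 13.2 FPKM, log2 -1.15), which were called lower. Mfap4 and Slc47a1 lie in a stretch of 145.3 kb on chromosome 11. Between and around them, Rnf112 (9.09 and 2.50 FPKM, log2 -1.53) and Epn2 (46.0 and 18.2 FPKM, log2 -1.29) were called lower. The median of the 6 genes there other than Mfap4 and Slc47a1, with Rnf112 and Epn2 among them, was -0.08. In both regions genes called higher thus lay beside genes called lower. Islr and Loxl1 share a region of chromosome 9 with Stra6, a receptor for retinol-binding protein, which was called higher at 26.7 and 58.5 FPKM (log2 1.10). The median of the 6 genes there other than Islr and Loxl1, with Stra6 among them, was 0.41. Next to Fmod and Prelp on chromosome 1, the only other tested gene was Btg2, which was called higher at 4.54 and 11.6 FPKM (log2 1.19). No other tested gene lay within 100 kb of Dcn and Lum. Neighbours are named here for their position.

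Other genes of the meninges differed in the same direction. Of 31 genes listed for arachnoid and meningeal cells, none of them among the 42, 29 were tested, and 20 of these were called higher and 0 lower, with a median log2 difference of 1.14. Ptgds, which encodes prostaglandin D synthase and is made by arachnoid cells and also by oligodendrocytes, was at 5876 and 16780.2 FPKM (log2 1.51). The growth factor Igf2 was at 679 and 1665 FPKM (log2 1.29). Slc22a6, an organic anion transporter of the arachnoid barrier, had the largest difference of that list, at 12.3 and 47.9 FPKM (log2 1.88). Most genes of this list thus reached at least 1 FPKM in 1 or both libraries. The list was chosen with earlier results of these data known. Of 8 genes listed for perineurial cells, 6 were tested and 4 were called higher, with a median of 1.05. The list shares Slc2a1 with the endothelial list, and whether its genes mark perineurial cells in this tissue was not tested. Lypd2 was at 21.2 and 74.5 FPKM (log2 1.76).

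Further matrix genes outside the 42 and outside the collagens differed less evenly. Of 68 listed, 62 were tested, and 15 were called higher and 0 lower, with a median log2 difference of 0.75. In this list 4 differences were below 0. Tgfbi, a matrix protein induced by TGF-beta, was at 29.0 and 89.95 FPKM (log2 1.60). Fstl1, a secreted glycoprotein of mesenchyme, was at 198 and 412 FPKM (log2 1.05). Serpinh1, the collagen chaperone, was at 149 and 314 FPKM (log2 1.07).

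Markers of other cell types differed between the libraries as well, in both directions. Their part in the differences of the 42 genes was not tested. All 12 oligodendrocyte markers were called lower, at a median log2 difference of -2.52, and their summed level was 28070.3 FPKM in control against 3766 in cKO. Of 12 astrocyte markers 2 were called higher, with a median of 0.67 and a summed level of 1969 and 3353 FPKM. For 13 mural cell markers, which overlap in function with fibroblast genes, 2 were called higher, the median was 0.65 and the summed level was 305 and 558 FPKM. No gene of the endothelial and microglia lists was called. For 14 endothelial markers the median was 0.39 and the sums were 266 and 366 FPKM. For 12 microglia markers the median was 0.54 and the sums were 406 and 598 FPKM. Of 9 Schwann cell markers 5 were tested and 0 called, with a median of 0.63 and sums of 109 and 184 FPKM, mostly from Pmp22 (95.6 and 167 FPKM), which is not restricted to Schwann cells. The differences of vessels and glia other than oligodendrocytes were thus above 0 at their medians and below the median of the 42 genes.

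Markers of muscle and of cartilage and bone, tissues next to the nerve, had lower summed levels than the lists of glia and vessels. Of 10 skeletal muscle markers 5 were tested and 0 called, with a median of 0.37 and sums of 17.6 and 22.5 FPKM. Skeletal actin (Acta1) was at 10.5 and 14.3 FPKM (log2 0.41), troponin Tnnt3 at 2.75 and 3.86 (log2 0.37) and the myosin light chain Mylpf at 2.17 and 1.06 (log2 -0.62). The muscle regulator Myog was at 0.0284 FPKM in control and listed at 0 in cKO. Of 15 genes of cartilage, tendon and bone, 6 were tested, 2 were called higher and 1 lower, with a median of 0.71 and sums of 21.0 and 28.2 FPKM. Of these 6 differences, 4 were above 0 and 2 below. Alpl, which encodes alkaline phosphatase, was at 4.90 and 15.3 FPKM (log2 1.46), and the osteoblast factor Sp7 was at 8.18 and 2.06 FPKM (log2 -1.58). The cartilage collagen Col2a1 was at 4.38 and 1.79 FPKM (log2 -0.95) and was not called. Col10a1, the marker of hypertrophic cartilage, was listed at 0 in control and at 0.00782 FPKM in cKO. Of the 3 red blood cell genes tested (of 6 listed, 1 of them without an entry), 2 were called higher, with a median of 1.44, above the 1.05 of the 42 genes, and sums of 85.3 and 265 FPKM. The alpha globin gene Hba-a1 stood at 40.9 FPKM in control against 143 in cKO (log2 1.78), and the beta globin gene Hbb-b1 was at 43.8 and 121 FPKM (log2 1.44). Globin genes have close copies that can share reads.

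**Figure D3:**
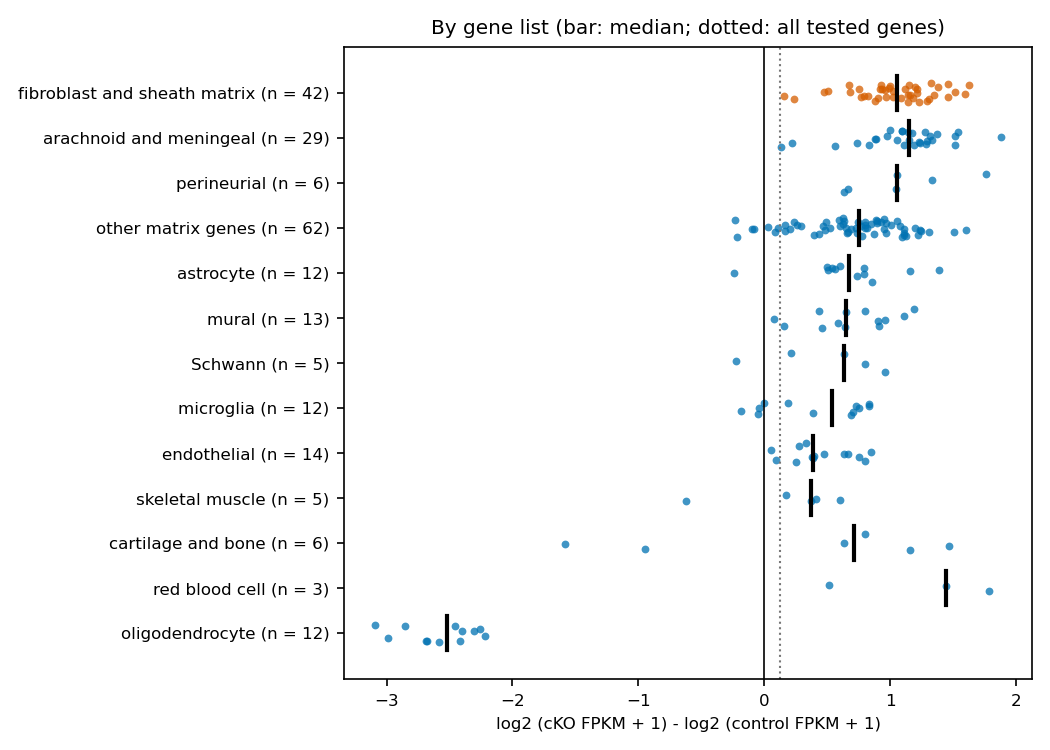
Log2 difference (cKO minus control) of each tested gene of 13 lists, with a bar at each list's median and a dotted line at the median of all tested genes, 0.12. The 42 fibroblast and sheath genes (median 1.05) and the arachnoid and meningeal genes (median 1.14) lie to the right of most points of the vascular and glial lists, and the oligodendrocyte markers (median -2.52) lie far to the left.

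Because FPKM is a share of a library total, the absolute position of the 42 differences depends on what is taken as the reference. Scaled to the same upper quartile, 21 of 42 were called higher with a median of 0.98 (3.77% of all genes higher, 4.94% lower). Centred on the median of all tested genes, 19 were called higher with a median of 0.93 (3.10% of all genes higher, 5.38% lower). Centred on the median of the endothelial list, 5 were called (Dcn, Lum, Mgp, Islr and Mmp2; 1.14% of all genes were called higher and 8.50% lower), with a median of 0.66 and 40 of 42 differences above 0. Centred on the median of the astrocyte list, a setting chosen after the data were seen, 0 were called (0.502% of all genes higher, 15.1% lower), with a median of 0.38 and 38 of 42 above 0. The genes below 0 in that setting were Aspn, Cdh11, Fbn2 and Omd. The 5 genes named for the endothelial centring were among the 7 called with the same FPKM sum, beside Foxc2 and Slc6a13. Leaving out 9 genes that vessels or astrocytes are also known to express (Sparc, Timp2, Timp3, Mgp, Bgn, Fbn1, Fn1, Thbs1 and Slc6a13) left 33 genes, of which 20 were called higher, with a median of 1.08. The 33 are not free of vessel genes, since Tbx18, also known from mural cells, is among them.

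**Figure D4:**
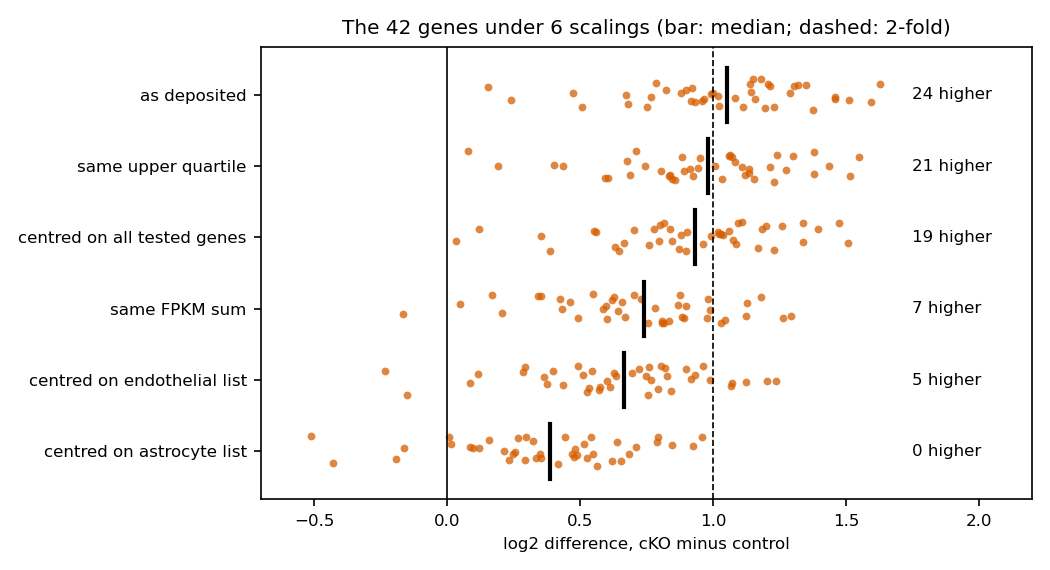
Log2 differences of the 42 genes under 6 scalings, with a bar at each median, a dashed line at 2-fold and the number called higher at the right. The median falls from 1.05 as deposited to 0.74 with the same FPKM sum and 0.38 when centred on astrocyte markers, and the number called falls from 24 to 7 and 0.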

How the data were processed

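The authors deposited gene-level FPKM for 1 control and 1 cKO library, each value with 2 interval bounds and a status, per the file headers. CASAVA, TopHat and Cufflinks, and the build mm9, are named in the submitters' processing notes. The sources used here give no versions, annotation, read numbers or total behind the FPKM, so depth is unknown. The median half-width of the deposited interval over the 42 genes was 5.28% of its midpoint in control and 2.18% in cKO.

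The 24460 entries of both tables were matched by symbol, start site group and locus, and a symbol was represented by its entry with the highest summed FPKM. Genes with status OK in both libraries and at least 1 FPKM in 1 or both were compared as log2(FPKM + 1), without further scaling and without a test, since each group has 1 library. Locus starts were raised by 1 to count from 1. The call rule was tested on simulated data. These had sampling noise alone, the same depth in both libraries and intervals centred on each value. The simulation therefore does not cover variation between animals or values outside their own interval. Python 3.11.15, pandas 2.3.3 and matplotlib 3.10.9 were used.

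The 42 genes and the gene lists were chosen with earlier results of these data known. All 42 are named. Of each other list at most 3 genes were named by rule (2 by mean FPKM, 1 by the size of its difference), and not all of these are printed. Myog, Col2a1 and Col10a1 were named after their values were seen. Promoters came from RefSeq (GRCm38.p6), matched by symbol. Protein sequences were not used here. Other pseudocounts, scalings, minimum levels, entry rules and call rules were tried.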

Additional observations from a re-analysis of the deposited data

How the results depend on the processing

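On the deposited scale 24 of the 42 genes were called higher, with a median log2 difference of 1.05. No setting called any of them lower. The count moved by over 1.5 times to 15 with a pseudocount of 5 (1.99% of all genes higher), 7 with the same FPKM sum (1.54%), 5 when centred on the endothelial list (1.14%), 0 when centred on the astrocyte list (0.502%; chosen after the data were seen) and 38 with a fold of 1.5 (16.0%). It was 16 when the nearest interval bounds had to be 2-fold apart (1.94%), and 24 when intervals were extended to hold their own FPKM (also chosen after the data were seen). The median was 1.12, 1.10 and 0.92 with pseudocounts of 0.1, 0.5 and 5, and 0.98, 0.93, 0.74, 0.66 and 0.38 with the upper quartile, all-gene, same-sum, endothelial and astrocyte scalings. It was 1.08 both with a minimum of 5 FPKM, which drops Aspn, and without the 9 genes shared with vessels or astrocytes. Signs turned for Cdh11 (-0.17 with the same sum, -0.24 endothelial, -0.51 astrocyte), Aspn (-0.15 endothelial, -0.43 astrocyte), Omd (-0.19 astrocyte) and Fbn2 (-0.16 astrocyte). No replicate can be left out, and depth is unknown. No paired analysis was possible because each group has 1 library.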
